A study of Mus musculus with 2 samples.

Results

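Gene expression was compared between the epidermis and the dermis of newborn control mice, within one genotype and one dye. The members are 2 of the 4 RNA pools of the study, those of Casp-8F/+K5-Cre mice, called F/+ from here on. They were chosen by their label as the Cy3 channels of both arrays, 1 array per layer, and not by any measured value. Each holds RNA of 3 mice at postnatal day 3. These mice carry 1 Casp-8 allele that Cre can inactivate (F), 1 wild-type allele (+) and a Cre recombinase gene driven by the promoter of keratin 5, a gene of basal keratinocytes. The control epidermis can thus have lost 1 of its copies of caspase-8, which starts the apoptotic cascade below death receptors, whereas the dermis has K5-Cre in its genome but few cells in which that promoter is active. The other 2 pools, from Casp-8F/–K5-Cre mice (called F/-), were labelled with Cy5 and co-hybridised to the same arrays. They hold 3 mice for epidermis and 2 for dermis, and appear below only beside the F/+ values.

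The epidermis is a stratified epithelium made mostly of keratinocytes, which divide in the basal layer and cornify as they move outward. The dermis is a collagen-rich connective tissue of fibroblasts with vessels, nerves and immune cells, and muscle and fat lie beneath it. Hair follicles are epithelial but reach down into the dermis, so that follicle cells can be left on either side of a split. Here the layers were split with dispase, a protease that acts on the basement membrane, overnight at 4 °C (2.4 U/ml). The files name each spot by a manufacturer's probe number and pair none with a gene (0 of 20868 were found in the gene table used). Keratinocyte and fibroblast markers could therefore not be looked up to check the labelled layers, and results are given by probe. In whole tissue, fewer cells of a type and less RNA per cell cannot be told apart.

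Each array carries 22575 spots, among them 21318 spots of 20868 probes, 20818 of them printed once and 50 printed 10 times. Median probe signals in Cy3, less the local background, were 456 in the epidermis and 503 in the dermis. Summed over probes, the epidermal signal was 4.70e+07 and the dermal signal 3.86e+07. No spot of either Cy3 channel was saturated. Probes counted as above background where their signal exceeded the 95th percentile of 162 negative control spots, 50.8 for the epidermis and 49.2 for the dermis. By this limit 95.7% of probes were above background in the epidermis and 97.9% were in the dermis. A level below means a Cy3 intensity after quantile normalization, which gives both layers the same distribution of levels. As a consequence, the counts of probes higher in either layer are drawn toward each other, and a shift of all RNA between the layers cannot be seen. There is 1 pool and 1 array per layer, so layer and array cannot be told apart, no test was run and the spread between mice is unknown.

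Of 20868 probes, 2613 had a level at least 2-fold higher in the epidermis (12.5%) and 2590 at least 2-fold higher in the dermis (12.4%), together 24.9%. The remaining 15665 probes lay under 2-fold, and 55.2% of all probes lay under 1.5-fold. The log2 difference, epidermis minus dermis, had a median of 0.04 and quartiles of -0.48 and 0.54.

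Large differences in F/+ skin were more often toward the dermis. At 4-fold, 771 probes were higher in the epidermis and 929 in the dermis. In F/- skin this lean was absent at 4-fold (886 and 873) but present at 16-fold (119 and 196). At 16-fold the F/+ counts were 104 (0.498%) and 194 (0.930%), and at 64-fold 19 and 46. The extremes were 8.28 toward the epidermis and -8.18 toward the dermis on the log2 scale, closer to each other in size than repeated spots of a probe (pooled SD 0.25). Median levels of the 104 probes were 9657 (epidermis) and 233 (dermis), and those of the 194 probes were 144 and 5612. These medians lay far above the median level of all probes (479.6 in both layers) on the high side, and below it on the low side. Choosing probes past 16-fold favours such a contrast by itself. Single probes could read above 479.6 on their low side too, as the upper quartile of the 104 in the dermis was 510. Of the 194, 14 were not above background in the epidermis, so that their folds are not measured on the dim side, against 1 of the 104 in the dermis.

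**Figure D1:**
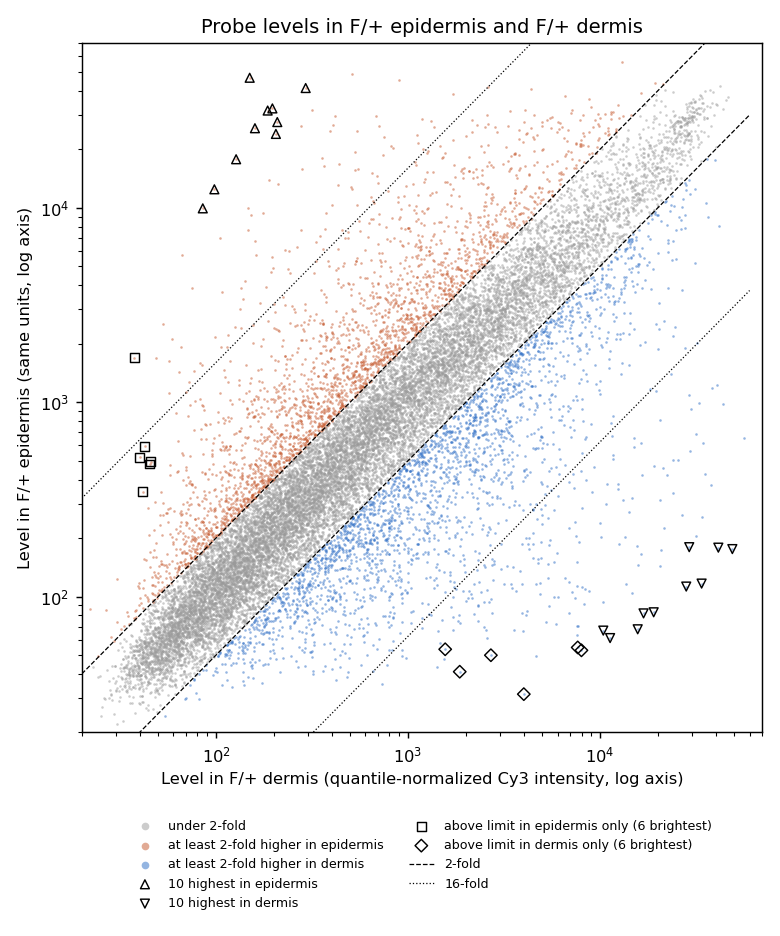
Level of each of 20868 probes in F/+ dermis (x axis) and F/+ epidermis (y axis), both as quantile-normalized Cy3 intensity on log axes, with 1 point per probe and lines at 2-fold and 16-fold. Most probes lie between the 2-fold lines, and the 194 probes beyond the 16-fold line on the dermal side outnumber the 104 on the epidermal side.

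The 10 probes that stood out most toward the epidermis, among those above background in both layers and without uneven spots, differed 116- to 311-fold. The epidermal level of A_51_P248986 was 46584 and its dermal level 149.7. It was the third brightest probe of the epidermis and ranked 15932 in the dermis. A_51_P510141 had levels of 31597 and 186, a log2 difference of 7.41. A_51_P206475 (32403 and 197) and A_51_P314465 (25625 and 159) followed with 7.36 and 7.33. In the dermis these probes were near the lower quartile of all levels (159), whereas in the epidermis they belonged to the brightest 200. A_51_P518907 was at 41248 in the epidermis and 293 in the dermis, the highest dermal level of the 10. The other five, A_51_P172151, A_51_P167284, A_51_P495747, A_51_P143082 and A_51_P495719, had log2 differences from 6.86 to 7.12. The last of them was the dimmest of the 10 in both layers, with 9921 and 85.3.

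Toward the dermis the 10 largest differences ran from 155- to 289-fold. A_51_P143296 had an epidermal level of 117 and a dermal level of 33753, a log2 difference of -8.18. A_51_P246854 had 175 and 48793 (-8.12), and it was the second brightest probe of the dermis. A_51_P458451 had 113 and 28072 (-7.96). The first 3 were thus bright dermal signals over an epidermal signal that was low yet above background. A_51_P416858 had a level of 41248 in the dermis and 178 in the epidermis, and A_51_P156955 had 29099 and 179. A_51_P300487, A_51_P142813, A_51_P467224, A_51_P295085 and A_51_P345649 were dimmer, with dermal levels from 10384 to 18999. Their epidermal levels of 61.2 to 83.0 lay close to background, so that their folds depend most on the background taken off.

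Some probes were above background in 1 layer only. In F/+ skin, 19843 probes were above it in both layers, 137 in the epidermis only, 580 in the dermis only and 308 in neither. Most of these were dim on their bright side too, with a median level of 65.3 for the epidermal and 61.7 for the dermal ones. A level of 500 or more was reached by 3 of the 137 and by 20 of the 580. The larger count for the dermis and its larger share of probes above background are the same observation.

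The brightest of the probes above background in the dermis only was A_51_P461868, at 7991 in the dermis and 52.9 in the epidermis. Its fold is at least 145, taken against a floor of 54.9 used for both layers. That is the lowest epidermal level of any probe above background, and the dermal one was 45.95. Bounds of this kind hold only for the background subtraction used. The log2 difference of A_51_P461868 was -7.24 with it, but -6.34 with another background method (normexp) and -6.42 without background subtraction. For A_51_P506204, with 7642 and 54.7, the fold was at least 139. A_51_P113129 (4005 and 31.5) was at least 72.9-fold higher in the dermis. The next 3, A_51_P265343, A_51_P165293 and A_51_P241319, had dermal levels from 1560 to 2699 and bounds from 28.4- to 49.1-fold.

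The 6 brightest of these probes on the epidermal side were dimmer than the 6 on the dermal side, except that A_51_P402994 read above A_51_P241319 (1560). A_51_P402994 led them with 1689 in the epidermis and 37.5 in the dermis, at least 30.7-fold. The next was A_51_P468196, with 594 and 42.6, at least 10.8-fold. A_51_P434144, A_51_P428115, A_51_P204329 and A_51_P388640 had epidermal levels between 346 and 519 and bounds between 6.30- and 9.45-fold. Against the dermal floor alone the bounds of these 6 would be 7.54- to 36.8-fold.

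**Figure D2:**
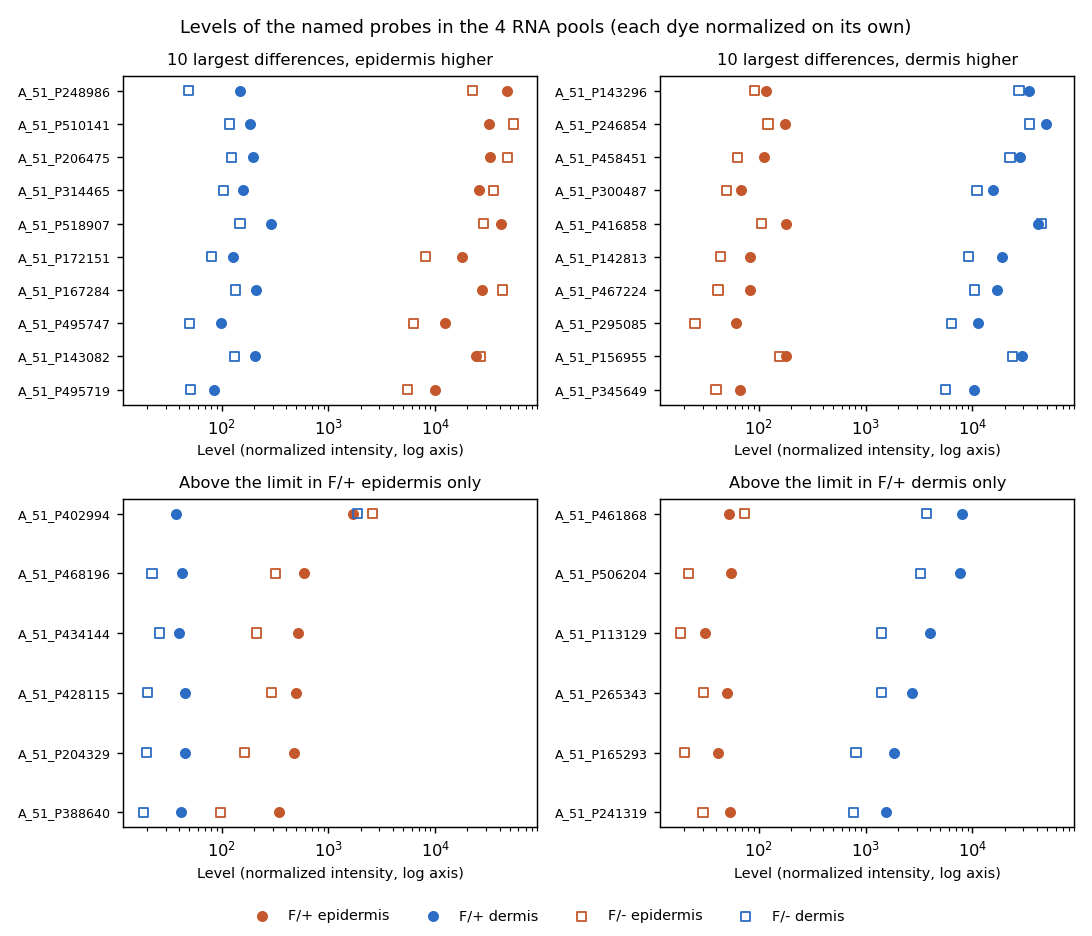
Levels (normalized intensity, log axis) of the 10 probes with the largest difference toward each layer and the 6 brightest probes above background in 1 layer only, as filled circles for F/+ and open squares for F/- pools, in orange for epidermis and blue for dermis. In the upper panels the layers are at least 116-fold apart in F/+ skin, and in the lower left panel A_51_P402994 is low in the F/+ dermis only.

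In F/- skin, read in the other dye from the same spots, the layers differed in much the same probes. Of the 2613 probes higher in the F/+ epidermis, 2195 (84.0%) were at least 2-fold higher in the F/- epidermis as well, where 13.0% of all probes were. Of the 2590 higher in the F/+ dermis, 2275 (87.8%) were at least 2-fold higher in the F/- dermis, again against 13.0%. All 194 probes past 16-fold toward the dermis and 101 of the 104 toward the epidermis were past 2-fold on the same side. The mice differed but the arrays did not, so this agreement includes whatever belongs to the arrays, to the position of a spot and to the probe. Over all probes the layer difference in F/- minus that in F/+ had quartiles of -0.18 and 0.16 on the log2 scale, and 90.6% of probes lay within 0.5.

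Of the 49 named probes past 2-fold in F/+ skin, 2 were under 2-fold in F/- skin, A_51_P402994 and A_51_P482128. The 10 largest toward the epidermis had F/- log2 differences from 6.66 to 8.84, and the 10 largest toward the dermis from -8.71 to -7.13. A_51_P295085 was not above background in the F/- epidermis. All 6 probes above background in the F/+ dermis only were also past 2-fold toward the dermis in F/- skin, where A_51_P461868 was above background in the epidermis with a level of 73.5. The F/- levels of A_51_P402994 were 2591 (epidermis) and 1861 (dermis), a log2 difference of 0.48. For A_51_P482128 the difference was 1.17 in F/+ and 0.55 in F/- skin. F/+ was read in Cy3 only and F/- in Cy5 only, so genotype and dye cannot be told apart. With 1 pool per group these differences were not tested. Levels of F/+ and F/- are on separate scales, since each dye was normalized on its own.

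**Figure D3:**
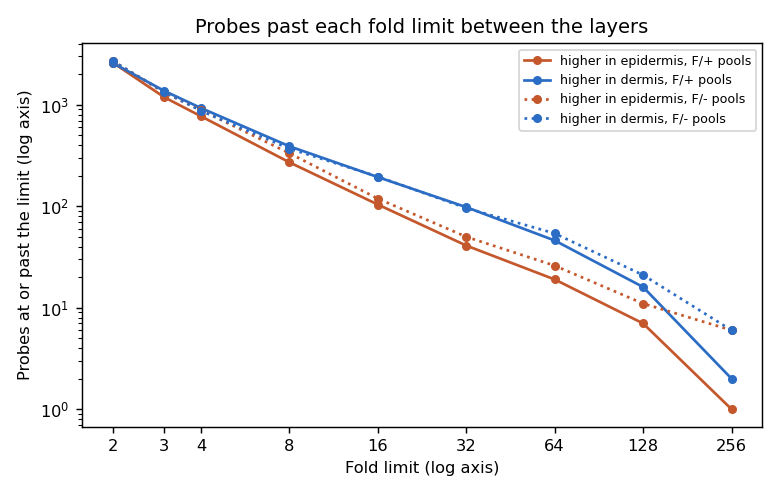
Number of probes (y axis, log scale) at or past each fold limit (x axis, log scale) toward the epidermis (orange) or the dermis (blue), with solid lines for F/+ and dotted lines for F/- pools. At 2-fold the F/+ counts are 2613 and 2590, and at 16-fold the dermal count of 194 lies above the epidermal count of 104.

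The brightest 100 probes held 8.36% of the summed signal in the F/+ epidermis and 7.58% in the F/+ dermis, and the brightest 1000 held 46.1% and 41.4%. In the Cy5 channels, with F/- RNA, the brightest 100 held 16.05% and 14.2%. There 34 epidermal and 4 dermal probe spots were saturated, whereas no Cy3 spot was. It took 1176 probes in the epidermis and 1451 in the dermis to reach 50% of the summed signal. The epidermal signal was thus in fewer probes on this measure, which has no error here. Of the 100 brightest probes, 44 were shared by both layers.

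The brightest probes were a mix of layer-biased and common ones. In the epidermis the first was A_51_P511346, with 56239, and it also read 13036 in the dermis (log2 difference 2.11). A_51_P200186, at 48793, and A_51_P387437, at 45417, were strongly biased, with dermal levels of 510.3 and 897. A_51_P482128, the fifth, had 43655 and 19391. Among the 100 brightest of the epidermis, 33 were at least 2-fold and 10 at least 16-fold higher there, against 12.5% and 0.498% of all probes.

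In the dermis the brightest probe was A_51_P269166, with 56239 against 655 in the epidermis (-6.42). A_51_P344552 and A_51_P390117, the third and the fourth, were bright in both layers. Their levels were 46584 and 45417 in the dermis and 37168 and 35894 in the epidermis, under 2-fold. A_51_P334104, the fifth, read 43655 in the dermis and 976 in the epidermis (-5.48). The dermal spot of A_51_P269166 was less even than those of the other 3, with an SD over pixels of 0.25 of its mean. For A_51_P344552, A_51_P390117 and A_51_P334104 it was 0.031 to 0.051. Among the 100 brightest of the dermis, 23 were at least 2-fold and 15 at least 16-fold higher there, against 12.4% and 0.930% of all probes. Probes picked for brightness in 1 layer lean toward that layer by the choice itself, so these counts are a description.

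The share of probes past 2-fold depended on how bright they were. In the dimmest decile of probes by the geometric mean of their levels in both layers (24.9 to 81.9), 5.56% were past 2-fold. The share rose to 33.7% in the seventh decile (774 to 1278) and was 23.9% in the brightest (above 4725). None of the probes in the dimmest 2 deciles was past 16-fold, but so low a mean level leaves little room for such a difference. Near background the dim side of a difference cannot be read, and no reason for the lower share in the brightest decile was tested.

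The only error that the files allow for the layer difference is that between spots of 1 probe. For the 50 probes printed 10 times, the SD of the log2 difference ranged from 0.034 (A_51_P147207) to 0.63 (A_51_P401591), with a median of 0.17 and a pooled value of 0.25. The 2-fold limit lay 3.99 pooled SDs from 0. Single spots could still pass it where the mean was near 0. A_51_P213099 had a mean of -0.13 and a spot at 1.14, and A_51_P346445 a mean of -0.10 and a spot at -1.18. The SD was over 0.3 for 11 probes and under 0.1 for 11. This spread is technical and holds nothing of the differences between mice or pools. Of the 50 probes, 5 were past 2-fold toward the epidermis and 6 toward the dermis, 22.0% in all, against 24.9% of all probes. Levels of the 10 epidermal and 10 dermal spots did not overlap for 21 probes, 11 of which were under 2-fold. Compared position by position, all 10 differences had the same sign for 30 probes.

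A_51_P284125 had the largest epidermal bias among them. Its spots ran from 14414 to 16771 (median 15886) in the epidermis and from 1695 to 2190 (median 1881) in the dermis. The log2 difference was 3.05 ± 0.12 (SD, n = 10 spots). The spots of the layers did not overlap. A_51_P411297 followed with 1.61 ± 0.083, from epidermal spots of 2304 to 2965 and dermal spots of 722 to 979. A_51_P262079 had 1.21 ± 0.078 and A_51_P274635 had 1.04 ± 0.15, both without overlap. A_51_P475138 had 1.18 ± 0.54, and its spots overlapped, with 558 to 975 in the epidermis and 110.4 to 587 in the dermis. Compared position by position, its 10 spot differences were all toward the epidermis, from 0.49 to 2.34. Taken from mean levels its difference was 1.08. It fell under the 2-fold limit with loess between the channels (0.98), with no normalization (0.95) and with normexp (0.99).

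Toward the dermis, A_51_P505868 and A_51_P279552 were equally far apart within their spread, at -3.43 ± 0.19 and -3.43 ± 0.12. Spots of A_51_P505868 ran from 189 to 265 in the epidermis and from 1988 to 2760 in the dermis. Spots of A_51_P279552 ran from 426 to 836 and from 5533 to 8046. A_51_P237746 had -2.77 ± 0.085, from 391 to 472 in the epidermis and 2579 to 3131 in the dermis. For these 3 probes every dermal spot read several times above every epidermal one. A_51_P172231 (-1.48 ± 0.14), A_51_P309854 (-1.36 ± 0.23) and A_51_P163444 (-1.36 ± 0.097) were lower but also free of overlap. A_51_P309854, the dimmest of the 6, came to -0.95 with normexp, under 2-fold.

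Repeated spots also lay apart between the arrays at smaller differences. All spots of a layer come from 1 array and 1 pool, so a lack of overlap cannot tell layer from array. A_51_P147207 differed by 0.84 ± 0.034, with epidermal spots from 21555 to 26577 and dermal spots from 11530 to 15115. A_51_P427674 differed by -0.54 ± 0.10 and was the smallest difference without overlap. Before normalization, kinds of control spots named (+)E1A differed between the arrays by -0.64 to 0.44. By contrast A_51_P401591 had spots from 908 to 3627 in the epidermis and 1911 to 3035 in the dermis, and a difference of -0.048 ± 0.63. Its single spots ran from -1.07 to 0.67, whereas most probes of the array were read from 1 spot.

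**Figure D4:**
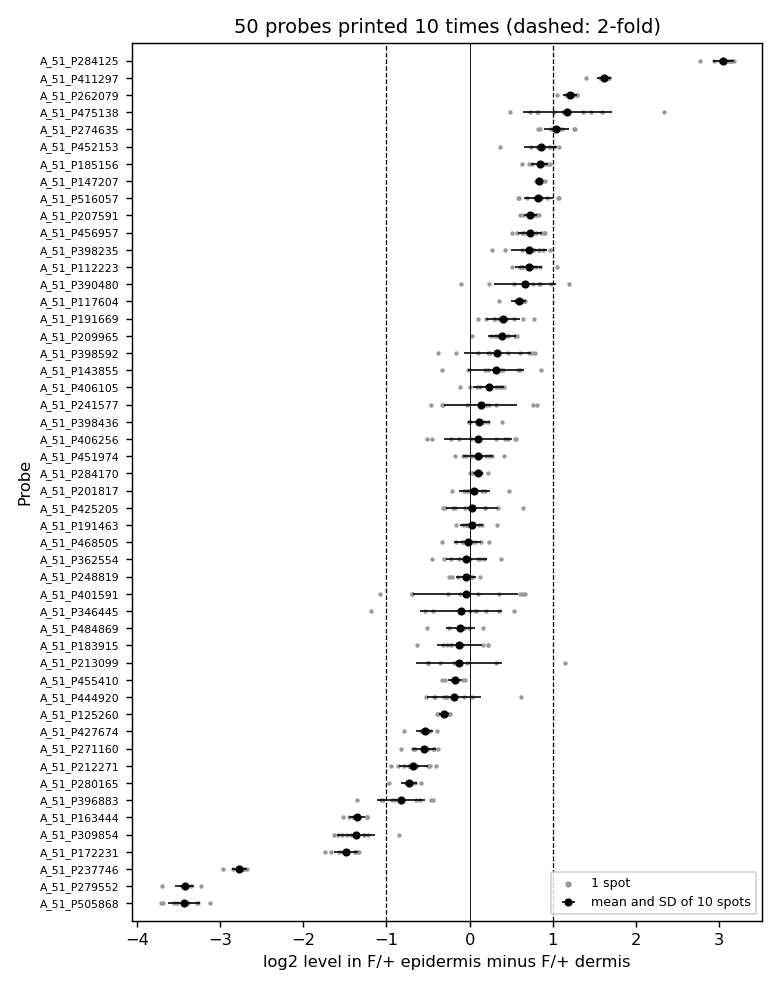
The log2 level in F/+ epidermis minus F/+ dermis (x axis) of the 50 probes printed 10 times (y axis), with grey points for single spots, black points and bars for the mean and SD of 10 spots, and dashed lines at 2-fold. Means run from -3.43 (A_51_P505868) to 3.05 (A_51_P284125), and 11 of them lie past 2-fold.

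The layer difference also varied with the position of a spot. Divided into 25 blocks of 823 to 875 probe spots, the array had block medians from -0.24 in the corner of block row 1 and block column 5 to 0.31 in block row 2 and block column 3. In F/- skin, on the same arrays, the medians of these blocks were -0.32 and 0.32. Repeated spots moved with position too. Those in the corner block lay on average 0.31 below their own probe's mean (21 spots), and those in block row 5 and block column 1 lay 0.17 above it (16 spots). The share of spots past 2-fold toward the epidermis ranged from 7.53% in the corner block to 17.9% in block row 5 and block column 1, and toward the dermis from 8.50% to 17.4%.

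With each block centred on its median, 2342 probes were at least 2-fold higher in the epidermis and 2702 in the dermis. Of the original calls, 2223 of 2613 and 2438 of 2590 were kept, and the order of the counts was turned. The 16-fold counts were 94 and 196. The pooled SD between repeated spots was 0.23 after centring, against 0.25 before, and it was smaller for 21 of the 50 probes.

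**Figure D5:**
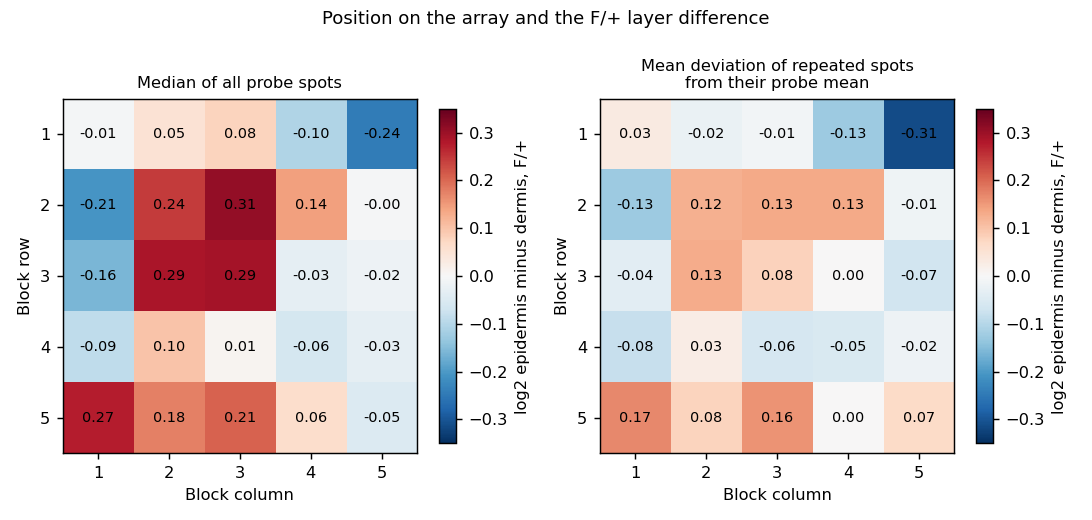
Array divided into 5 block rows and 5 block columns, with the median log2 difference (F/+ epidermis minus dermis) of all probe spots in each block on the left and the mean deviation of repeated spots from their own probe's mean on the right, on 1 colour scale. Block medians run from -0.24 in the upper right corner to 0.31, and the repeated spots are lowest (-0.31) in the same corner.

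Uneven Cy3 spots, whose SD over pixels exceeded 0.5 of their mean on either array, were found for 37 probes. Of these, 23 were past 2-fold (62.2%, against 24.9% of all probes), and none would have been among the 10 largest differences on either side. A local background over 100 surrounded 127 probe spots of the epidermis and 6 of the dermis. It touched 131 probes, of which 36 were past 2-fold (27.5%).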

How the data were processed

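Gene expression was measured on 2 two-colour arrays, 1 of epidermis and 1 of dermis. The authors deposited spot and local background intensities of each dye in separate files, read inside a fixed circle with quantification software of version 5.0, per the file headers, with no subtraction or normalization recorded. The background median was subtracted from the mean intensity of each spot, spots of a probe were averaged, and both Cy3 channels were quantile normalized to each other. Levels under 1 would have been set to 1, and none were. Log2 ratios are epidermis over dermis. Named probes are the 10 largest differences toward each layer above background in both, the 6 brightest above background in 1 layer only, the 5 brightest of each layer, and probes printed 10 times that were past 2-fold. Members, lists and rules were chosen with earlier results of these data known. The 17 planned gene lists and marker lists could not be used without gene names. The authors' table of genotype ratios was not used. Python 3.11.15, numpy 2.4.6, pandas 2.3.3, R 4.3.3 and limma 3.58.1 (normexp, loess) were used. The calculation was tested on simulated channels of 20868 probes with the pooled spot SD as noise. It recovered median folds of 3.02 and 8.06 where 3 and 8 were set, which gives no rate of false calls in the real data. Only 100 probes were changed at each fold, evenly in both directions, whereas 24.9% of real probes were past 2-fold. How quantile normalization acts on that many differences was therefore not tested. In Cy3 the number of arrays, 1 per layer, limits the precision.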

Additional observations from a re-analysis of the deposited data

Results flagged for a closer look

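The layers of F/+ and F/- skin differed at least 2-fold in opposite directions for 4 probes, and this was not tested. Genotype and dye cannot be told apart here either. A_51_P457747 had an epidermal level of 3609 and a dermal level of 10630.1 in F/+ skin, against 65500 and 8963 in F/- skin. Its F/- epidermal spot was saturated, so that the F/- difference is a lower bound, and it was higher than in F/+ by at least 4.43 on the log2 scale. For A_51_P402943 (1173 and 2846 in F/+) it was higher by 3.67, and for A_51_P255699 (98.97 and 213 in F/+) by 2.37. A_51_P169730 differed the other way, by -2.48, with 43405 and 21243 in F/+ skin and 21675 and 58999 in F/- skin.

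Control and unnamed spots, which enter no comparison above, also gave signal over the negative controls' 95th percentile in Cy3. Of 521 unnamed spots, 19.6% lay above it for the epidermis and 19.2% for the dermis. Of 264 spots named (+)eQC, 36.7% and 26.9% did. The 10 kinds of spots named (+)E1A, with 30 spots each, differed between the arrays by -0.64 to 0.44 on the log2 scale before normalization, where the negative control spots differed by 0.019. The lowest value was that of (+)E1A_r60_a107, at -0.64 ± 0.26 (SD, n = 30 spots), with median signals of 84.5 and 130.5.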

How the results depend on the processing

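The counts at 2-fold and 16-fold stayed within 1.5 times their values under every normalization, background method, pixel summary, floor and filter run. For 2-fold calls they ranged from 2145 (normexp) to 2996 (1 median factor per channel) toward the epidermis and from 2249 (normexp) to 2817 (no normalization) toward the dermis. At 16-fold they ranged from 75 (without the brightest 2%) to 123 and from 155 (normexp) to 196. Which layer had more 2-fold calls depended on the setting, as the share toward the epidermis ran from 46.4% (block centring) to 56.0% (median factor), against 50.2%. The dermis had more 16-fold calls under every setting. Which layer held the single largest difference turned with loess, at 8.16 (A_51_P248986) against -8.26 (A_51_P246854). Other fold limits change the counts by construction, to 4835 and 4524 at 1.5-fold and 1187 and 1371 at 3-fold. The brightest 100 probes held 16.05% (epidermis) and 14.2% (dermis) of the signal in the Cy5 channels, which hold F/- RNA; the cause was not tested. For the 51 named probes, 328 of 459 alternative values lay within 1 pooled spot SD of those reported, and 0 had the opposite sign among probes past 2-fold. These alternatives include the Cy5 channels, which hold other RNA. Under 2-fold, A_51_P344552 (-0.33) and A_51_P390117 (-0.34) turned sign. They came to 0.20 and 0.19 with 1 median factor per channel, and to 0.055 and 0.053 with no normalization. Block centring and leaving out spots over a local background of 100 were added after the data were seen. Dim signals limit the folds: for A_51_P402994, whose dermal side was not above background, only a bound is given. That bound holds for the background subtraction used. The log2 difference of this probe was 5.50 with it, 4.37 with normexp and 4.87 without background subtraction. No paired analysis was possible because each layer has 1 sample. The alternatives for gene lists were not run, for want of gene names.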
